A study of Mus musculus with 4 samples.

Results

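The 30 genes described here build, desaturate, control or export cholesterol and fatty acids. They were listed by name, with earlier results of these data known, and were read from the probes that carry those names. Where a gene had several probes, the probe with the highest mean log2 signal over the 4 arrays was used. All 30 had a probe, out of 22314 genes with a named probe on these arrays, and 11 of them had more than 1 probe. They fall into 15 genes of sterol synthesis, 6 genes of sterol control and transport, and 9 genes of fatty acid synthesis.

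RNA of 4 cultures of mouse neural stem cells was measured, with 1 single-colour array for each culture. NSCL61-Ceacam1sh were cells of the line NSCL61 that expressed a short hairpin RNA against Ceacam1, a cell adhesion molecule of the immunoglobulin family. NSCL61 is known as a glioma-initiating line that was made by giving neural stem cells an activated Ras. NSC-Ceacam1L were neural stem cells that expressed the long form of Ceacam1, and NSC were the neural stem cells they were set against. All 4 cultures had the genotype p53-/-, were described as brain of the E14.5 embryo, and grew in serum-free medium made for neural stem cells. The protocol gives transfection of expression vectors and a week of hygromycin selection for every sample, and does not say whether the NSCL61 and NSC cells held an empty vector. NSCL61 is a single line, so its differences from NSC are those of that line. No probe for Ceacam1 was analysed here, so the gain and the knockdown themselves could not be checked, and the groups are called by their labels.

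Cells make cholesterol from acetyl-CoA through mevalonate, farnesyl diphosphate, squalene and lanosterol. Fatty acid synthesis draws on the same acetyl-CoA, and its products are elongated and desaturated. The transcription factors SREBP1 and SREBP2, encoded by Srebf1 and Srebf2, drive genes of both routes when membrane sterol is low, and the ER protein INSIG1 holds them back when it is high. The nuclear receptors LXR respond to oxidised sterols and raise the sterol exporters ABCA1 and ABCG1, and LXR also raises Srebf1. In the brain, cholesterol is made locally because plasma lipoproteins do not cross the blood-brain barrier, and glial cells are known to export it on apolipoprotein E.

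Known promoter elements of this system were looked up in RefSeq promoter windows of the build GRCm38.p6, which run from 250 bases before to 50 bases after an annotated transcription start. A window was at hand for 22 of the 30 genes. The 5 windows printed here show the elements side by side: Hmgcs1, Dhcr7 and Ebp are the sterol synthesis genes with the largest differences in the results that follow, and Abca1 and Fasn hold the same LXR element. Capitals mark the core of the sterol regulatory element (TCACNCCAC), the NF-Y box (CCAAT, or ATTGG where it lies on the other strand) and the LXR direct repeat (GGTNA, 5 bases of any kind and GGTNA again, or its reverse complement). Hmgcs1 lies at chr13:119690101-119690400 on the plus strand, Dhcr7 at chr7:143829964-143830263 on the plus strand for the third of its annotated starts, and Ebp at chrX:8193463-8193762 on the minus strand. Abca1 lies at chr4:53159846-53160145 and Fasn at chr11:120824498-120824797, both on the minus strand. Each is written in the direction of transcription.
Hmgcs1: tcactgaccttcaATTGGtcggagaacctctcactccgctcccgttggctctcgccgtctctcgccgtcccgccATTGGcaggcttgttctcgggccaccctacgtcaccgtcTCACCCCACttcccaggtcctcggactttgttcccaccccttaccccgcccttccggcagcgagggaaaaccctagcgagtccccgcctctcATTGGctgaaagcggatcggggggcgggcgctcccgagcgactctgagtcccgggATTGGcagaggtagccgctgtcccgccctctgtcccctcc
Dhcr7: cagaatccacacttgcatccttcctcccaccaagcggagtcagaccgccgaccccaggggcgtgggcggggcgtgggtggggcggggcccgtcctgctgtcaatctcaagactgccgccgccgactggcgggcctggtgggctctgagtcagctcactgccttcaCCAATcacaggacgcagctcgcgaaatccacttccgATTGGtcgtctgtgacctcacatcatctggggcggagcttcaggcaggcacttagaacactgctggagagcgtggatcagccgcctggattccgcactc
Ebp: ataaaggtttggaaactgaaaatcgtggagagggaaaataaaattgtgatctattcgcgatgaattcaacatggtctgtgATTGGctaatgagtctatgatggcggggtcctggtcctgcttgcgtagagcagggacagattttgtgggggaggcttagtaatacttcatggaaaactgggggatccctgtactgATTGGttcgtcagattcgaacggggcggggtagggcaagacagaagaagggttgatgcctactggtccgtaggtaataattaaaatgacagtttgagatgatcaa
Abca1: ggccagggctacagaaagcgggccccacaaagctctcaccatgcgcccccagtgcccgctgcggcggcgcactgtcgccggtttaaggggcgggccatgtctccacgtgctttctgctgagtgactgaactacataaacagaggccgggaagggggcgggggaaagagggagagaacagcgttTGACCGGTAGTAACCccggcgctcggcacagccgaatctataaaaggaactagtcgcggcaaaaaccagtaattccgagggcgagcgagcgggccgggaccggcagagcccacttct
Fasn: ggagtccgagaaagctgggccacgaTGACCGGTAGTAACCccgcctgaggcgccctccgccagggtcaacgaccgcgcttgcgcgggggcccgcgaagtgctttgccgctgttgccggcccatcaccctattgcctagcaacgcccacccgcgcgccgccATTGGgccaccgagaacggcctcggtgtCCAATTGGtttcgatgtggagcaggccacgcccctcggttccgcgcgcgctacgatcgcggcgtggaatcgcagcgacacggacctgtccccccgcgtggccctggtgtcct

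Hmgcs1 was the only one of the 22 genes with the full sterol element core in its window, at bases -137 to -129 from the start, on the plus strand. Over all 27025 genes with a window, 1.44% held it on either strand. With the last base left out (TCACNCCA), Hmgcs1 and Srebf2 matched, against 4.97% of all genes. NF-Y boxes were found in 17 of the 22 genes (77.3%), and in 11 of the 12 sterol synthesis genes with a window, against 41.1% of all genes. GC boxes (GGGCGG on either strand), the sites of SP1-type factors, were found in 17 of the 22 as well, against 38.2% of all genes. In the Fasn window, the NF-Y boxes at -62 to -58 and at -59 to -55 overlap. A gene with several windows was counted if any of them matched. For Dhcr7 only the window of the third start held NF-Y boxes, and for Pmvk only that of the first. A match describes the letters of a window and is not evidence of binding, and a window without a match says nothing about elements outside it.

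The LXR repeat was found in 3 of the 22 genes, Abca1, Srebf1 and Fasn, against 0.818% of all genes. Abca1 and Fasn held the same 15 letters, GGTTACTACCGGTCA on the strand opposite to transcription, at -67 to -53 in Abca1 and at -225 to -211 in Fasn. Srebf1 held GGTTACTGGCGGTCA at -182 to -168 from the third of its annotated starts. Abca1, Srebf1 and Fasn differed in how their signal ran across the arrays, as their values show further on.

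**Figure D1:**
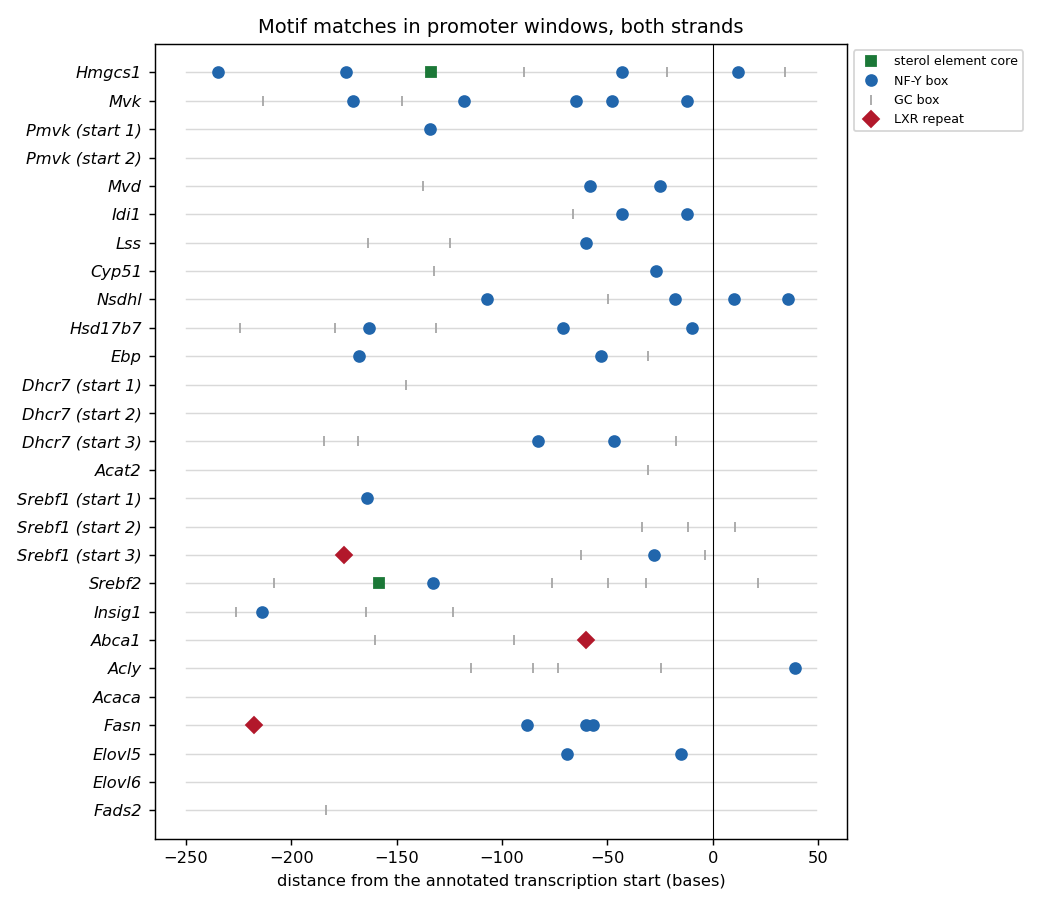
Motif matches on both strands in the 27 promoter windows of the 22 genes, with the distance from the annotated transcription start in bases on the horizontal axis and a row for each window. Green squares mark the sterol element core without its last base (Hmgcs1 and Srebf2), blue circles the NF-Y boxes, which recur over the sterol synthesis genes in the upper rows, grey ticks the GC boxes and red diamonds the LXR repeat, found in 1 window each of Srebf1, Abca1 and Fasn.

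Signals are given as scaled log2 signal, the log2 of the processed signal over the 75th percentile of that array, so 0 marks that percentile. A difference is NSCL61-Ceacam1sh minus NSCL61, NSC-Ceacam1L minus NSC, or NSCL61 minus NSC. A gene was evaluated where its probe was well above background by the scanner software on at least 1 of the 2 arrays, and it was called higher or lower once the difference reached 2-fold (1 on the log2 scale) with the brighter array well above background. With 1 array for each group there is no replicate spread, so no p-value is given, and precision is limited by how few arrays there are. The error of a difference is the scanner software's modelled spot error, which was 0.20 to 0.21 for every one of these genes except Abcg1 and covers no variation between cultures. The NSCL61 array is shared by the first and last of these comparisons and the NSC array by the other pair, so they are not independent. In RNA of a whole culture, fewer cells of a type and less RNA for each cell cannot be told apart.

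The 75th percentile of the signal was 541 on NSCL61-Ceacam1sh, 439 on NSCL61, 571 on NSC-Ceacam1L and 480.0 on NSC, and the 4 arrays lay on 1 slide, where each group had its own position, and these cannot be told apart. Of the 10 neural stem cell markers, 8, 9, 10 and 10 were well above background on NSCL61-Ceacam1sh, NSCL61, NSC-Ceacam1L and NSC. Their summed signal, in multiples of the 75th percentile, was 41.1, 530.5, 541 and 750.1 in the same order. Hes5 was among those not well above background on NSCL61-Ceacam1sh, and Prom1 was not on NSCL61. The label of neural stem cells therefore has most of its markers on every array, at a far lower sum on NSCL61-Ceacam1sh.

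Every gene of the set except Abcg1 was well above background on all 4 arrays, and Abcg1 was so on all but NSCL61-Ceacam1sh. NSC had the highest signal for 20 of the 30 genes, NSC-Ceacam1L for 5, NSCL61 for 3 and NSCL61-Ceacam1sh for 2. The lowest signal was on NSCL61-Ceacam1sh for 15 genes, on NSCL61 for 13 and on NSC-Ceacam1L for 2, and never on NSC. Sterol synthesis genes followed this most, with 12 of 15 at their highest on NSC. Their lowest signal was on NSCL61-Ceacam1sh for 6 and on NSCL61 for 8. The exceptions at the top were Ebp and Hsd17b7, highest on NSCL61-Ceacam1sh, and Fdft1, highest on NSCL61. These counts hold for the scaling used here, and no share over all genes was set beside them. With scaling on the spike-in probes, 7 of the 15 sterol synthesis genes had a higher signal on NSC-Ceacam1L than on NSC, and 8 a lower one. Of the 9 fatty acid synthesis genes, 7 had a higher signal on NSC-Ceacam1L and 2 a lower one. NSC was thus not the highest array for those with a higher signal on NSC-Ceacam1L.

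**Figure D2:**
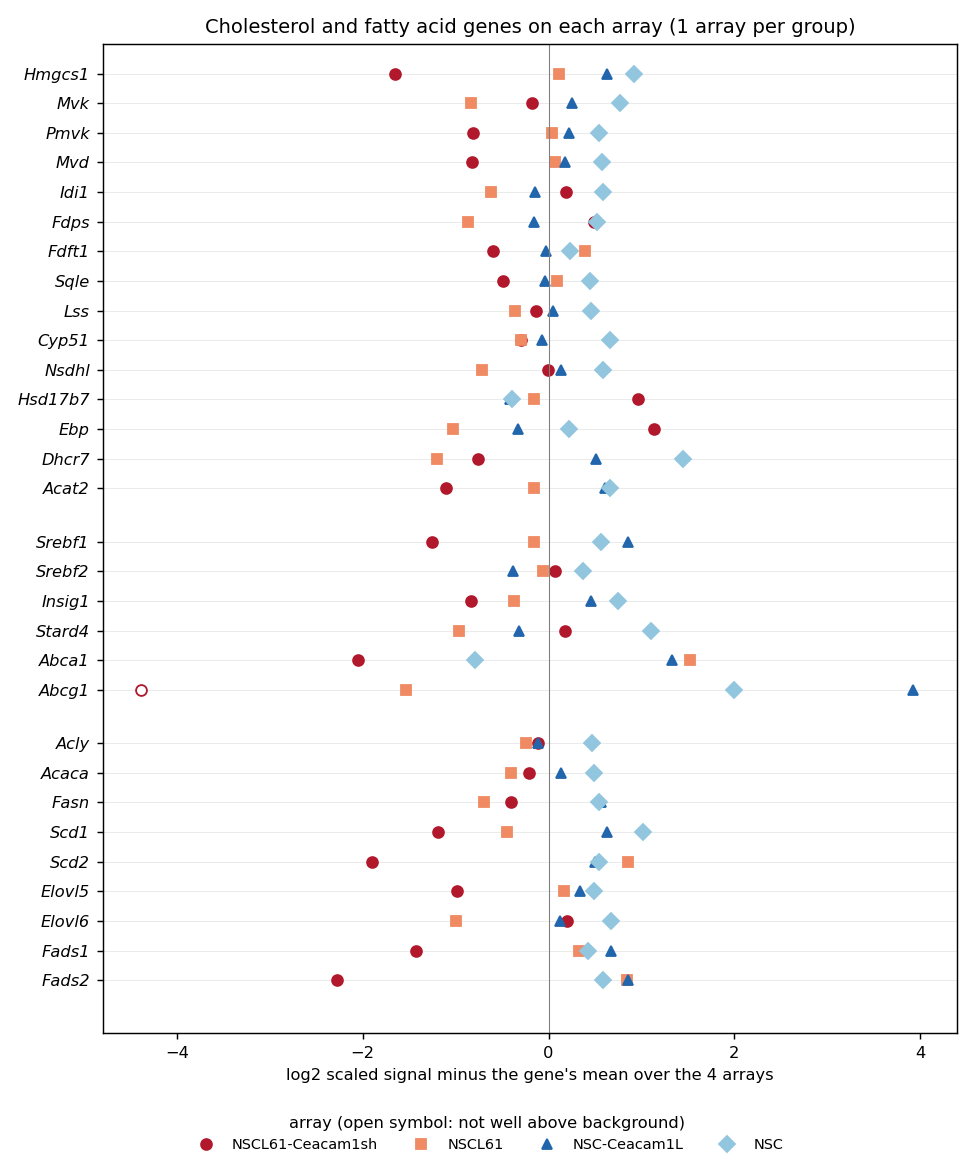
Scaled log2 signal of each of the 30 genes on each array, minus the mean of that gene over the 4 arrays, with sterol synthesis, sterol control and transport, and fatty acid synthesis genes from top to bottom. NSC (diamonds) stands at the right for 20 genes, Abca1 has NSCL61 and NSC-Ceacam1L together at the right, and the open circle of Abcg1 was not well above background.

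The comparison of NSCL61-Ceacam1sh with NSCL61 asks which genes differ when Ceacam1 is knocked down in the glioma-initiating line. The lipid genes lay on both sides of 0. The sterol exporter Abca1 (11.9-fold), the desaturases Fads2 (8.69-fold), Scd2 (6.72-fold) and Fads1 (3.36-fold) and the elongase Elovl5 (2.22-fold) were lower on NSCL61-Ceacam1sh, while the desaturase Scd1 lay within 2-fold. Of the 15 sterol synthesis genes, Ebp (4.48-fold), Fdps (2.56-fold) and Hsd17b7 (2.18-fold) were higher and Hmgcs1, at the entry of the pathway, was 3.41-fold lower. Of the 30 genes, 5 were higher and 8 lower by 2-fold or more, against 23.4% higher and 24.2% lower over 15605 genes. These are shares of 16.7% and 26.7%, on either side of 0 and near those of all genes. The median difference was -0.23 beside 0.01 over all genes, and turned positive with median scaling (0.19 beside 0.43) and with scaling on the spike-in probes (0.23 beside 0.47).

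Ebp, the sterol isomerase late in the pathway, had scaled log2 signals of 5.17 on NSCL61-Ceacam1sh, 3.0 on NSCL61, 3.71 on NSC-Ceacam1L and 4.26 on NSC. NSCL61-Ceacam1sh stood above the other arrays, and NSCL61 was the lowest. The difference between the NSCL61 arrays was 2.16 ± 0.20. The probe lies at 7762463 to 7762522 on chromosome X of mm9, minus strand. Fdps, which makes farnesyl diphosphate, had 6.06 on NSCL61-Ceacam1sh, 4.70 on NSCL61, 5.42 on NSC-Ceacam1L and 6.09 on NSC. Here NSCL61-Ceacam1sh was close to NSC and NSCL61 was the low array, with a difference of 1.36 ± 0.20 between the NSCL61 arrays. Hsd17b7, a reductase of the demethylation steps after lanosterol, had 1.55 on NSCL61-Ceacam1sh, 0.43 on NSCL61, 0.17 on NSC-Ceacam1L and 0.20 on NSC. NSCL61-Ceacam1sh alone was high for this gene, at 1.13 ± 0.20 from NSCL61, and its dimmer probes gave 1.03 and 2.20.

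Hmgcs1, which condenses acetyl-CoA units into HMG-CoA, had 4.63 on NSCL61-Ceacam1sh, 6.40 on NSCL61, 6.91 on NSC-Ceacam1L and 7.20 on NSC. The signal was lowest on NSCL61-Ceacam1sh by a wide margin, with a difference of -1.77 ± 0.20 from NSCL61. Its window, printed above, is the one with the full sterol element core. The squalene synthase Fdft1 came next at -0.99, just inside 2-fold, and the cytosolic thiolase Acat2 was at -0.95. A dimmer Fdft1 probe, not well above background on NSCL61-Ceacam1sh, was at least 2.34-fold lower there, and the mean over both probes was -1.58. The mevalonate enzymes did not go together, with Mvk, the kinase that acts first on mevalonate, at 0.66, Pmvk, which adds the next phosphate, at -0.85, and Mvd, the decarboxylase, at -0.90. Idi1, the isomerase that follows, was at 0.81 and squalene epoxidase Sqle at -0.58. After squalene, Lss (0.23), Nsdhl (0.70) and Dhcr7 (0.44) were above 0, and Cyp51 did not differ beyond its modelled error. Of the 15 sterol synthesis genes, 3 were higher, 1 was lower and 11 lay within 2-fold, with a median of 0.23. Fdft1, Pmvk and Mvd also passed 2-fold lower with quantile normalization (-1.16, -1.09 and -1.004) and with cyclic loess (-1.24, -1.16 and -1.08), and Idi1, Nsdhl and Mvk passed 2-fold higher with median scaling (1.23, 1.12 and 1.079) and with spike-in scaling (1.26, 1.16 and 1.12).

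Abca1, which loads cholesterol onto apolipoproteins, had 0.48 on NSCL61-Ceacam1sh, 4.05 on NSCL61, 3.86 on NSC-Ceacam1L and 1.74 on NSC. NSCL61 and NSC-Ceacam1L were high, NSC lay between, and NSCL61-Ceacam1sh was lowest. The difference between the NSCL61 arrays was -3.57 ± 0.20 (probe at 53043944 to 53044003 on chromosome 4 of mm9, minus strand), and 6.19% of all genes were as low or lower. Abcg1, which passes cholesterol to lipoproteins, had -6.86 on NSCL61-Ceacam1sh, -4.0 on NSCL61, 1.44 on NSC-Ceacam1L and -0.48 on NSC. It was not well above background on NSCL61-Ceacam1sh and was dim on NSCL61, so it was at least 1.68-fold lower. It was counted as lower from its measured difference of -2.86 ± 1.47, which was -0.76 with normexp background correction.

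Stard4, a cytosolic carrier of cholesterol, had 1.95 on NSCL61-Ceacam1sh, 0.81 on NSCL61, 1.46 on NSC-Ceacam1L and 2.87 on NSC. It was the sterol control or transport gene that was higher on NSCL61-Ceacam1sh than on NSCL61 by 2-fold or more, at 1.14 ± 0.20, and a dimmer probe of the gene gave 2.83. Srebf1 had -0.91 on NSCL61-Ceacam1sh, 0.19 on NSCL61, 1.20 on NSC-Ceacam1L and 0.91 on NSC. It was lowest on NSCL61-Ceacam1sh, at -1.10 ± 0.21 from NSCL61, whereas Srebf2 was at 0.14, within its modelled error. Insig1, which retains the SREBP factors in the ER, was at -0.46. The 6 control and transport genes had a median of -0.78.

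Scd2, the stearoyl-CoA desaturase known as the brain form, had 5.91 on NSCL61-Ceacam1sh, 8.66 on NSCL61, 8.31 on NSC-Ceacam1L and 8.35 on NSC. The other 3 arrays were close together and NSCL61-Ceacam1sh stood apart, at -2.75 ± 0.20 from NSCL61. Its neighbour on chromosome 19, Scd1, of the same enzyme family, differed by -0.74 in the same comparison. Fads2, which starts the desaturation of polyunsaturated fatty acids, had -0.08 on NSCL61-Ceacam1sh, 3.04 on NSCL61, 3.06 on NSC-Ceacam1L and 2.79 on NSC. Fads1, which acts after it, had 1.88 on NSCL61-Ceacam1sh, 3.63 on NSCL61, 3.97 on NSC-Ceacam1L and 3.73 on NSC. For both, NSCL61-Ceacam1sh alone was low, and the difference between the NSCL61 arrays was -3.12 ± 0.20 for Fads2 and -1.75 ± 0.20 for Fads1. The brightest Fads2 probe was designed on a cDNA listed under that gene, and the probe of its RefSeq transcript gave -2.31.

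Elovl5, which elongates the products of Fads2, was also lower, with 2.87 on NSCL61-Ceacam1sh, 4.02 on NSCL61, 4.19 on NSC-Ceacam1L and 4.34 on NSC. The difference between the NSCL61 arrays was -1.15 ± 0.20. Elovl6, which elongates palmitate, went the other way, with 3.12 on NSCL61-Ceacam1sh, 1.91 on NSCL61, 3.04 on NSC-Ceacam1L and 3.59 on NSC. NSCL61 was the low array for this gene, and the difference was 1.20 ± 0.20. The enzymes that build palmitate lay within 2-fold, with citrate lyase Acly at 0.13, acetyl-CoA carboxylase Acaca at 0.20 and fatty acid synthase Fasn at 0.29. Further probes gave 0.34, 0.55 and 0.66 for Acaca and 0.35 for Acly. In all, 1 of the 9 fatty acid synthesis genes was higher and 4 were lower, with a median of -0.74.

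**Figure D3:**
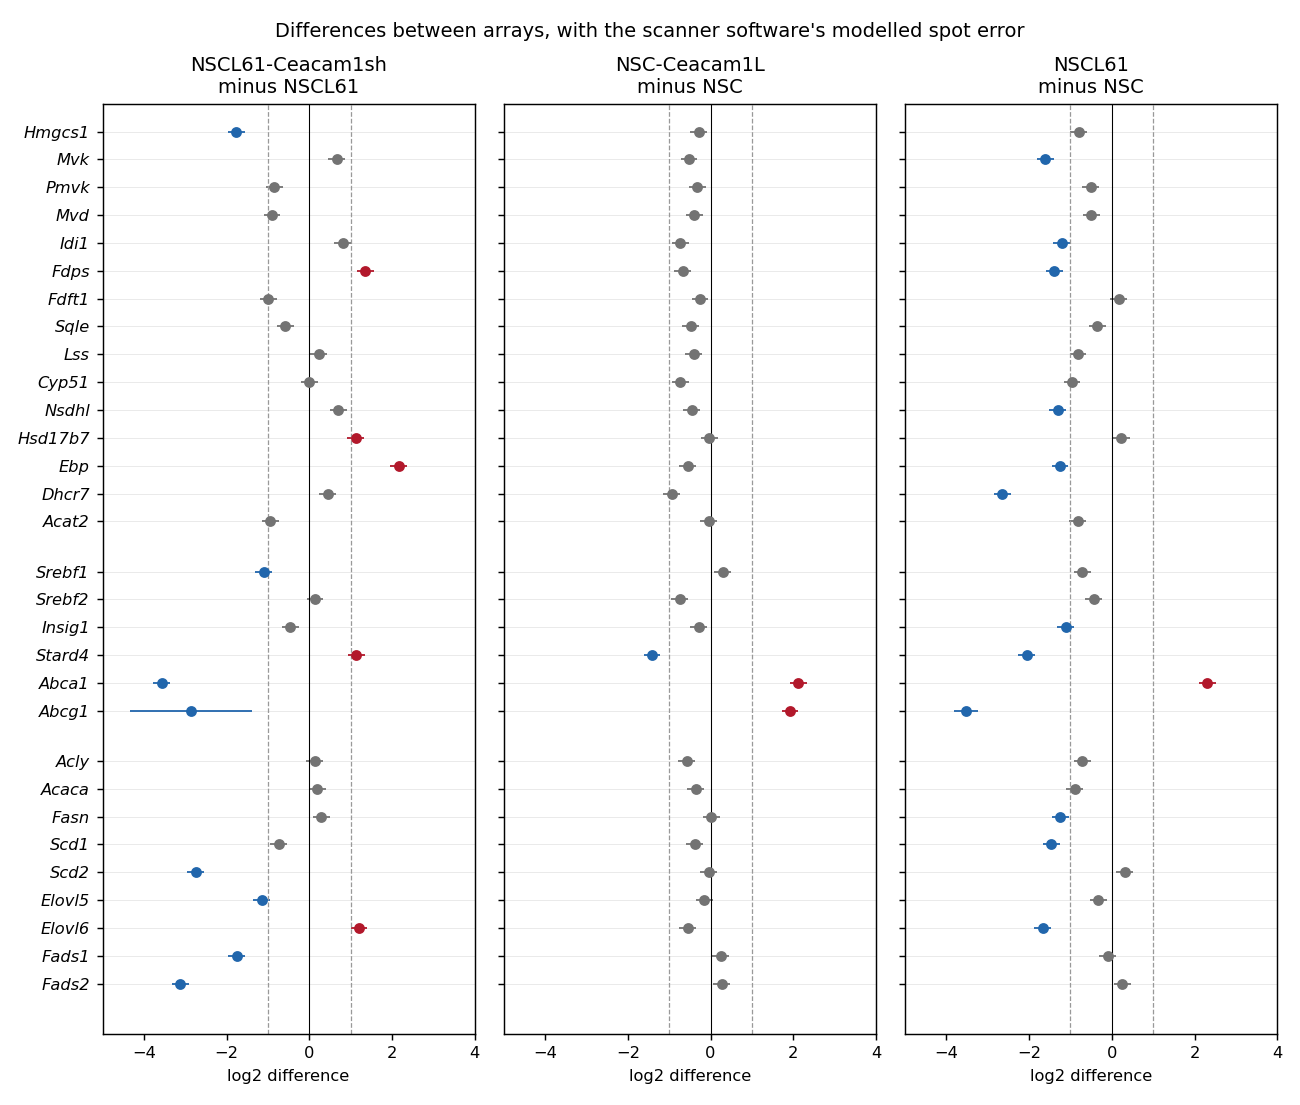
Log2 difference of each gene in the 3 comparisons, with the scanner software's modelled spot error as bars and dashed lines at 2-fold. Red marks genes counted as higher and blue genes counted as lower. In the left panel 8 genes are blue and 5 red, in the middle panel 1 and 2, and in the right panel 12 and 1.

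Of 27 other sterol pathway genes evaluated, 5 were higher and 6 lower on NSCL61-Ceacam1sh (18.5% and 22.2%), with a median of -0.20. Over all genes the shares were 23.4% and 24.2%. Mylip, which encodes a ubiquitin ligase, was higher by 3.01, with -0.63 on NSCL61-Ceacam1sh against -3.64 on NSCL61. The lipid carrier Apoe differed by -9.04 and the exporter Abcg4 by -4.93. Of 29 other fatty acid genes, 7 were higher and 12 lower (24.1% and 41.4%), with a median of -0.48. They were led by Fabp7, the fatty acid binding protein of radial glia, which is also among the neural stem cell markers (-12.36), the acyltransferases Agpat2 (5.46) and Gpam (-4.96), and the acyl-CoA synthetase Acsl4 (3.35). Fads3, of the same gene cluster as Fads1 and Fads2 and named here after its values were seen, was higher by 1.88, with 4.20 on NSCL61-Ceacam1sh against 2.32 on NSCL61. Fatty acid oxidation genes moved less, with 3 higher and 1 lower of 24 (12.5% and 4.17%) and a median of -0.39. The reductase Decr1 was at 1.51, the nuclear receptor Ppard at 1.27 and the dehydrogenase Acadl at -0.99.

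Marker genes of several cell types moved in the same comparison. Of 8 astrocyte markers, 5 were well above background on NSCL61-Ceacam1sh and 8 on NSCL61, with summed signals of 3.89 and 948 times the 75th percentile. Gfap, Slc1a2 and S100b were not well above background on NSCL61-Ceacam1sh. Oligodendrocyte markers had sums of 1.78 and 145 (5 and 7 of 8 well above background, with Olig1, Olig2 and Gpr17 among those that were not on NSCL61-Ceacam1sh), and neuron markers 9.43 and 62.6 (3 and 6 of 8). Fibroblast markers had sums of 26.2 on NSCL61-Ceacam1sh and 4.1 on NSCL61 (7 and 6 of 10), with Lum, Thy1 and Fap not well above background on NSCL61-Ceacam1sh. Of 8 fibroblast markers evaluated, 6 were higher and 1 lower, with a median log2 difference of 4.81. Dcn (9.97), Pdgfrb (8.42), Col3a1 (5.25), Col1a2 (5.14), Col1a1 (4.48) and Twist1 (1.92) were higher, and Thy1 (-3.52) was lower. Dcn and Pdgfrb were not well above background on NSCL61. Microglial markers had sums of 15.4 and 28.5 (4 and 5 of 8) and endothelial markers 12.3 and 19.6 (3 and 4 of 8), without Aif1, P2ry12 and Ptprc, or Tek, Cldn5, Emcn and Tie1, on either array. The summed neural stem cell markers also stood at 41.1 on NSCL61-Ceacam1sh and 530.5 on NSCL61. The part of these cell types in the lipid gene differences was not tested.

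Under cyclic loess normalization Ebp alone of the 30 genes was higher by 2-fold or more, with Fdps (0.98), Hsd17b7 (1.00), Stard4 (0.99) and Elovl6 (0.98) just inside it. With median and with spike-in scaling, Elovl5 was at -0.73 and -0.69 and Srebf1 at -0.68 and -0.64, and Srebf1 was at -0.96 with normexp. Abca1, Fads2, Scd2, Hmgcs1, Fads1 and Ebp passed 2-fold under all 9 alternatives that gave them a value. Not all of these could move a call, because the filters on dim probes leave the values as they are. The mean of all probes changes only genes with more than 1 probe.

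The comparison of NSC-Ceacam1L with NSC asks which genes follow the gain of Ceacam1. Both sterol exporters were higher on NSC-Ceacam1L, Abca1 by 4.35-fold and Abcg1 by 3.79-fold, and the cholesterol carrier Stard4 was 2.67-fold lower. All 15 sterol synthesis genes had a lower signal on NSC-Ceacam1L than on NSC, none of them by 2-fold. Over all genes, 57.5% were below 0 as well. The number of the 15 genes below 0 was 13 with median scaling, 11 with quantile normalization, 10 with cyclic loess and 8 with spike-in scaling. Of the 30 genes, 2 were higher and 1 lower by 2-fold or more, against 10.5% higher and 6.05% lower over 15311 genes. In shares this is 6.67% and 3.33%, with a median of -0.37 against -0.10 over all genes, and of 0.04 against 0.31 under spike-in scaling.

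Abca1 was at 3.86 on NSC-Ceacam1L and 1.74 on NSC, a difference of 2.12 ± 0.20, and 3.43% of all genes were as high or higher. Abcg1 was at 1.44 on NSC-Ceacam1L and -0.48 on NSC, a difference of 1.92 ± 0.20, and was well above background on both. For Stard4 the signals were 1.46 on NSC-Ceacam1L and 2.87 on NSC, a difference of -1.42 ± 0.20, and a dimmer probe gave -1.28. Srebf1 and Fasn, which like Abca1 have a match to the LXR repeat pattern in the windows above, differed less. Srebf1 was at 0.29 and Fasn at 0.018, inside its modelled error. Srebf2 was at -0.75 and Insig1 at -0.29. The 6 control and transport genes thus lay on both sides of 0, with a median of 0.0033.

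Dhcr7, the reductase of the last step to cholesterol, had the largest difference of the sterol synthesis genes, with 2.16 on NSC-Ceacam1L and 3.1 on NSC (-0.94 ± 0.20). Cyp51, the lanosterol demethylase, and Idi1 followed at -0.73 each, then Fdps at -0.67, Ebp at -0.55 and Mvk at -0.52. Sqle (-0.48), Nsdhl (-0.46), lanosterol synthase Lss (-0.41), Mvd (-0.39), Pmvk (-0.32), Hmgcs1 (-0.29) and Fdft1 (-0.25) also differed by more than the modelled error, whereas Acat2 (-0.049) and Hsd17b7 (-0.027) did not. That error does not cover the choice of scaling. Over the alternatives, Hmgcs1 ran from -0.31 to 0.26 and Fdft1 from -0.56 to 0.16, and Lss, Mvd and Pmvk also reached above 0. The median of the 15 genes was -0.46, and 13 of them lay below the median of all genes. Relative to the median of all genes under the same scaling, it was 13 for median, quantile and spike-in scaling and 14 for cyclic loess.

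Fatty acid synthesis genes lay within 2-fold, from -0.58 for Acly to 0.27 for Fads2, with a median of -0.15. Of the 9, 6 were below 0 (2 under spike-in scaling), against 57.5% of all genes. Elovl6 was at -0.55, Scd1 at -0.38 and Acaca at -0.35, while Fads1 was at 0.24. Scd2, Elovl5 and Fasn did not differ beyond the modelled error. The desaturases that were far lower on NSCL61-Ceacam1sh were thus near equal on this pair of arrays.

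**Figure D4:**
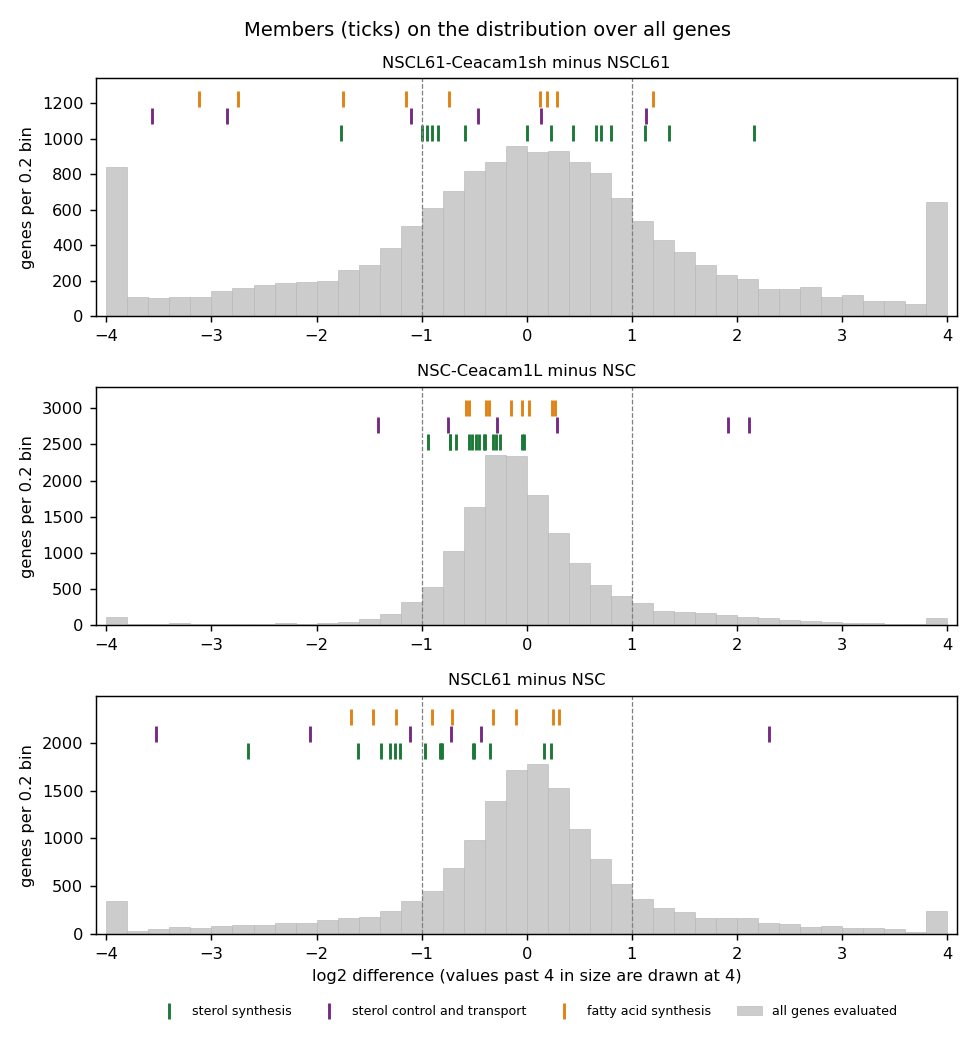
Distribution of log2 differences over all genes evaluated (grey, number of genes in bins of 0.2) in the 3 comparisons, with the 30 genes as ticks by group and dashed lines at 2-fold. The sterol synthesis ticks lie left of 0 in the middle panel and mostly so in the lower panel, and are spread to both sides in the upper panel.

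Among 27 other sterol pathway genes evaluated, 3 were higher on NSC-Ceacam1L and 0 lower (11.1% and 0%), with a median of -0.13. Over all genes the shares were 10.5% and 6.05%. Apoe (2.39) and Nr1h3, which encodes an LXR receptor (1.53), were higher, and the sterol reductase Lbr (-0.92) lay just inside 2-fold. In the list of other fatty acid genes, 6 of 30 were higher and 1 lower (20% and 3.33%), with a median of 0.08. Among the higher ones were Agpat2 (1.45), the acyl-CoA synthetase Acsl6 (1.44), Gpam (1.43) and Thrsp (1.22), a nuclear protein of lipogenic cells. Of 24 oxidation genes, 1 was higher and 0 were lower (4.17% and 0%), with a median of 0.22. That gene was Pdk4, the pyruvate dehydrogenase kinase (1.46), and the list also held the brain carnitine acyltransferase Cpt1c (0.71) and the thiolase Acaa2 (0.62).

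Astrocyte markers were also higher on NSC-Ceacam1L, with summed signals of 739.6 against 402 on NSC and all 8 well above background on both. Fibroblast markers had sums of 19.2 and 5.24, with 5 and 4 of 10 well above background and Col3a1, Dcn, Lum, Twist1 and Fap not well above background on either. Most of the NSC-Ceacam1L sum came from Thy1 (3.71 on NSC-Ceacam1L and 1.0 on NSC, scaled log2) and Pdgfra (2.5 and 1.52), which neural cells are known to express too, while Col1a1 (-3.37 and -2.66) and Col1a2 (-2.32 and -3.07) were dim on both arrays. Sums on NSC-Ceacam1L and NSC were 541 and 750.1 for neural stem cell markers (10 and 10 of 10 well above background), 302 and 254 for oligodendrocyte markers (8 and 8 of 8) and 29.7 and 26.0 for neuron markers (7 and 6 of 8). They were 26.9 and 21.7 for microglial and 9.23 and 12.6 for endothelial markers, each with 3 of 8 on either array, and Aif1, Cx3cr1, P2ry12, Tmem119, Ptprc, Cdh5, Tek, Cldn5, Emcn and Tie1 were not well above background. The part of these cell types in the result was not tested. Abca1, Abcg1 and Stard4 passed 2-fold under all 9 alternatives run, not all of which could move a call.

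The comparison of NSCL61 with NSC sets the glioma-initiating line, known to be made with an activated Ras, against neural stem cells that share its p53-/- label. Of the sterol synthesis genes, 6 of 15 were lower on NSCL61, led by Dhcr7 (6.29-fold) and Mvk (3.05-fold), and of the fatty acid synthesis genes 3 of 9, Elovl6 (3.19-fold), Scd1 (2.76-fold) and Fasn (2.37-fold). The carrier Stard4 was 4.18-fold lower. The exporters split, with Abca1 4.96-fold higher and Abcg1 11.5-fold lower, a log2 difference of -3.53 that was -2.13 with normexp. Of the 30 genes, 1 was higher and 12 lower by 2-fold or more, against 14.4% higher and 14.0% lower over 15296 genes. In shares of the 30 genes this is 3.33% and 40%, and the median was -0.82 against 0.03 over all genes.

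Dhcr7 had scaled log2 signals of 0.89 on NSCL61-Ceacam1sh, 0.45 on NSCL61, 2.16 on NSC-Ceacam1L and 3.1 on NSC. Both arrays of the NSCL61 line were low and both NSC arrays high, and NSCL61 differed from NSC by -2.65 ± 0.20 (probe at 151033874 to 151033933 on chromosome 7 of mm9, plus strand). Mvk had 4.45 on NSCL61-Ceacam1sh, 3.79 on NSCL61, 4.88 on NSC-Ceacam1L and 5.40 on NSC. NSCL61 was the lowest, at -1.61 ± 0.20 from NSC, and a dimmer probe gave -1.55. Idi1 had 4.09 on NSCL61-Ceacam1sh, 3.29 on NSCL61, 3.76 on NSC-Ceacam1L and 4.49 on NSC, and Nsdhl, the dehydrogenase of the demethylation steps, had 1.52, 0.82, 1.66 and 2.12 in the same order. Like Fdps and Ebp above, both were lowest on NSCL61, and differed from NSC by -1.21 ± 0.20 (Idi1), -1.30 ± 0.20 (Nsdhl), -1.39 ± 0.20 (Fdps) and -1.25 ± 0.20 (Ebp).

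On the probes and with the scaling used here, the remaining sterol synthesis genes lay within 2-fold of NSC. Cyp51 was at -0.96, Lss and Acat2 at -0.82 each, Hmgcs1 at -0.80, Pmvk at -0.51, Mvd at -0.50 and Sqle at -0.35. Hsd17b7 was at 0.23 and Fdft1 at 0.16, which is inside its modelled error. Thus 6 of the 15 genes were lower by 2-fold or more and 0 higher, with a median of -0.82. Below 0 were 13 of them, against 48.2% of all genes, and 13 or 14 under each other scaling. A dimmer Hmgcs1 probe, not well above background on NSCL61, was at least 2.88-fold lower there. Over the alternatives, Cyp51 reached -1.19, Hmgcs1 -1.16, Acat2 -1.05 and Lss -1.04, all past 2-fold.

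Abca1 was at 4.05 on NSCL61 and 1.74 on NSC, a difference of 2.31 ± 0.20, with 4.98% of all genes as high or higher. Abcg1 was at -4.0 on NSCL61 and -0.48 on NSC, a difference of -3.53 ± 0.28, with 2.55% of all genes as low or lower. The exporters therefore lay on opposite sides on this pair of arrays and on the same side between NSC-Ceacam1L and NSC. Stard4 was at 0.81 on NSCL61 and 2.87 on NSC (-2.06 ± 0.20), and its dimmer probe gave -2.25. Insig1, which SREBP factors are known to induce, had -0.28 on NSCL61-Ceacam1sh, 0.18 on NSCL61, 1.01 on NSC-Ceacam1L and 1.30 on NSC. It differed by -1.11 ± 0.21 between NSCL61 and NSC, while Srebf1 (-0.72) and Srebf2 (-0.43) were within 2-fold.

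Among the fatty acid genes, Elovl6 was at 1.91 on NSCL61 and 3.59 on NSC (-1.67 ± 0.20). Scd1 had 1.66 on NSCL61-Ceacam1sh, 2.40 on NSCL61, 3.48 on NSC-Ceacam1L and 3.86 on NSC, and differed by -1.47 ± 0.20 between NSCL61 and NSC. Fasn had -0.015 on NSCL61-Ceacam1sh, -0.31 on NSCL61, 0.96 on NSC-Ceacam1L and 0.94 on NSC, and differed by -1.24 ± 0.20. For Scd1 and Fasn, both NSCL61 arrays were below both NSC arrays. Acaca (-0.90), Acly (-0.71) and Elovl5 (-0.32) were lower within 2-fold, and Acaca reached -1.12 over the alternatives. Scd2 (0.31) and Fads2 (0.25) were slightly above 0, and Fads1 (-0.10) was inside its modelled error. The 9 genes had 0 higher, 3 lower and a median of -0.71.

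In the other sterol pathway genes, 3 of 26 were higher and 7 lower (11.5% and 26.9%), with a median of -0.18. Over all genes the shares were 14.4% and 14.0%. The lipoprotein receptor Scarb1 (-2.18) was lower, and Apoe (1.92) was higher. Other fatty acid genes were mixed, with 8 higher and 5 lower of 28 (28.6% and 17.9%) and a median of -0.05. Fads3 (2.19), Gpam (2.15) and Acsl6 (2.09) were higher, and the elongase Elovl2 (-3.31) was lower. Oxidation genes had 1 higher and 4 lower of 24 (4.17% and 16.7%) and a median of 0.03. Among the lower ones were Decr1 (-7.41), Cpt1c (-1.28) and the coactivator Ppargc1a (-1.27).

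**Figure D5:**
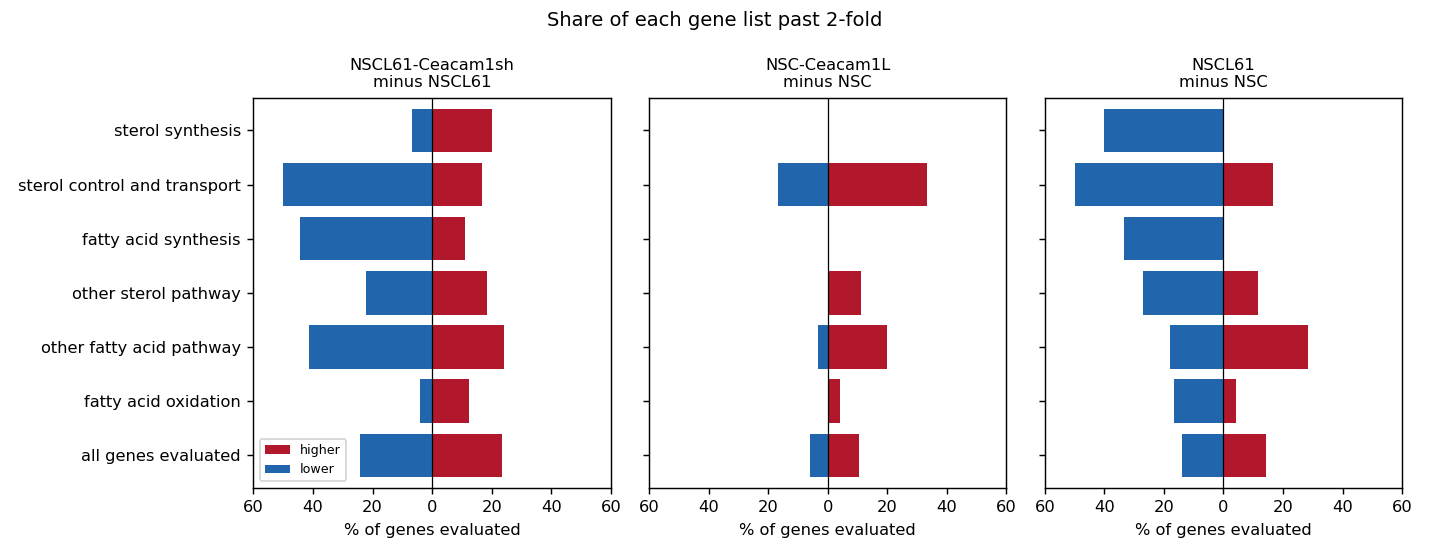
Share of the genes evaluated in each list that were higher (red, to the right) or lower (blue, to the left) by 2-fold or more in the 3 comparisons, in percent, with all genes evaluated in the lowest row. For NSCL61 minus NSC, 40% of the sterol synthesis genes were lower and 0% higher, against 14.0% and 14.4% of all genes.

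Astrocyte markers had summed signals of 948 on NSCL61 and 402 on NSC, with all 8 well above background on both. Of the 8, 6 were higher on NSCL61 by 2-fold or more, and 1, Aldh1l1 (-1.84), was lower. On NSCL61 and NSC, neural stem cell markers had sums of 530.5 and 750.1 (9 and 10 of 10 well above background), oligodendrocyte markers 145 and 254 (7 and 8 of 8) and neuron markers 62.6 and 26.0 (6 and 6 of 8). Fibroblast markers had 4.1 and 5.24 (6 and 4 of 10), microglial markers 28.5 and 21.7 (5 and 3 of 8) and endothelial markers 19.6 and 12.6 (4 and 3 of 8). Prom1 and Mbp were not well above background on NSCL61, nor was Dcx on NSC. Most of the neuron marker sum on NSCL61 came from Tubb3 (5.29 on NSCL61 and 1.05 on NSC, scaled log2). Of 7 neuron markers evaluated, 3 were higher and 1 lower, Rbfox3 (-3.13), which was not well above background on NSCL61. The part of these cell types in the result was not tested. All 13 genes counted here passed 2-fold under all 9 alternatives run, not all of which could move a call.

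Set side by side, the 3 comparisons gave Abca1 values of -3.57, 2.12 and 2.31 in the order NSCL61-Ceacam1sh minus NSCL61, NSC-Ceacam1L minus NSC and NSCL61 minus NSC. In the same order, Stard4 had 1.14, -1.42 and -2.06. Dhcr7 had 0.44, -0.94 and -2.65, and Hmgcs1 had -1.77, -0.29 and -0.80. Ebp had 2.16, -0.55 and -1.25, and Fdps had 1.36, -0.67 and -1.39. Because the comparisons share arrays, a low signal on NSCL61 alone gives a positive first and a negative last value, as with Elovl6 (1.20, -0.55 and -1.67).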

How the data were processed

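RNA of 4 cultures was labelled with Cy3 and hybridised to Agilent single-colour arrays (design 028005), 1 for each group, on 1 slide. Per the file headers, the authors read and background-corrected the spot intensity in version 10.7.3.1 of Agilent's Feature Extraction (protocol GE1_107_Sep09), while the submitters' processing notes name version 9.1. The NSC file holds at most 3 significant digits. The deposited table of log2 values matched the scanner values in scale and direction (column medians 0.03, 0.00, -0.20 and 0.25 for NSCL61-Ceacam1sh, NSCL61, NSC-Ceacam1L and NSC), with its centring unknown, and served as an alternative.

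From the deposited intensity, control and outlier spots were left out, spots of a probe averaged, and log2 values set relative to the 75th percentile of each array. A probe was well above background where at least 50% of its spots were. Of 55648 probes, 27212 were named by accession, 3580 by symbol and 565 by an older symbol through RefSeq, and 24291 had no name. Probe coordinates are those of the files (mm9). No test was possible with 1 array for each group. Abcg1's bound sets its NSCL61 signal against the dimmest probe well above background on NSCL61-Ceacam1sh. Alternatives were median, quantile and cyclic loess scaling, normexp background correction (offset 50), the authors' table, no filter or a stricter filter on dim probes, the mean of all probes, a 1.5-fold threshold and, chosen after seeing the data, scaling on 8 spike-in probes. The filters leave values unchanged, the mean of all probes changes only genes with more than 1 probe, and the authors' table holds the same scan up to an offset.

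The 30 genes and the lists were chosen with earlier results of these data known. All 30 are described, and from each further lipid list up to 4 genes for each comparison with the largest difference and a signal well above background on both arrays are named, apart from some that are not reported here. Python 3.11.15, numpy 2.4.6, pandas 2.3.3, matplotlib 3.10.9, R 4.3.3 and limma 3.58.1 were used, and the calculations were tested on simulated data.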

Additional observations from a re-analysis of the deposited data

How the results depend on the processing

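No paired analysis was possible because each group has 1 array. The same lack of replicates means that spread between cultures is unknown, and differences under the modelled spot error of about 0.20 cannot be read. No difference of the 30 genes that passed 2-fold changed sign under any alternative run.

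For NSCL61-Ceacam1sh minus NSCL61, the number of the 30 genes higher was 8 under median scaling, 8 under spike-in scaling, 8 at 1.5-fold and 1 under cyclic loess, and 13 were lower at 1.5-fold. The median difference was 0.19 under median scaling, 0.23 under spike-in scaling and 0.0029 with the stricter filter on dim probes, which leaves out Abcg1. For NSC-Ceacam1L minus NSC, the median was -0.14 under quantile normalization, -0.12 with cyclic loess and 0.043 with spike-in scaling, and 6 genes were lower at 1.5-fold. For NSCL61 minus NSC, the median was -1.04 under spike-in scaling and 19 genes were lower at 1.5-fold.

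The median of all genes moved by 0.42 (median scaling) and 0.46 (spike-in) in the first comparison, by 0.13 (quantile), 0.20 (cyclic loess) and 0.41 (spike-in) in the next, and by -0.22 (spike-in) in the last. The share of calls over all genes that were higher was 49.2% in the first comparison, and 64.5% with median and 65.7% with spike-in scaling. It was 63.4% for NSC-Ceacam1L minus NSC, and 75.3% with cyclic loess and 85.6% with spike-in scaling. For NSCL61 minus NSC it was 50.7%, and 40.1% under spike-in scaling. With normexp, 741 genes were higher and 523 lower on NSC-Ceacam1L, in place of 1603 and 926, and 1375 were higher and 1391 lower on NSCL61 than on NSC, in place of 2198 and 2140. The causes were not tested.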
